A study of Mus musculus with 12 samples.

Results

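The 32 genes described here were chosen as markers of cells that lie outside the seminiferous epithelium of the testis. These cells are the peritubular myoid cells and vascular smooth muscle, the stromal and mural cells, and the endothelium of the vessels. Whether each gene is confined to such cells was not tested. The genes were chosen with earlier results of these data known, so their counts beside the shares of all genes are a description and no independent test. The genes were taken by symbol from a table of 20718 genes measured by RNA sequencing of mouse testis. All 32 symbols were present, and all 32 passed the filter on low counts that left 16320 genes for testing. By role, 11 are contractile genes (Acta2, Myh11, Myl9, Tpm1, Tpm2, Tagln, Cnn1, Des, Actg2, Lmod1 and Mylk), 8 are stromal and mural genes (Pdgfra, Pdgfrb, Rgs5, Cspg4, Notch3, Dcn, Lum and Nr2f2) and 13 are endothelial genes (Pecam1, Eng, Flt1, Kdr, Tek, Tie1, Sox17, Sox18, Vwf, Emcn, Robo4, Egfl7 and Cd34). In lncRNA8276 overexpression against its control group, each of the 11 contractile genes had a lower fitted level, as 50.3% of all genes did. Their median log2 fold change was −0.47. No gene of the table passed the adjusted threshold of edgeR's quasi-likelihood test of all 12 libraries without a replicate block. A fit of the 6 libraries of these groups with a replicate block called Acta2 and Myl9, among 1.35% of its genes. That pairing of replicates was inferred from these data alone. The same block in the fit of all 12 libraries called 0 of the 32 genes and 0.0% of all genes.

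Seminiferous tubules are wrapped by flat peritubular myoid cells, whose contraction moves sperm and fluid along the tubule. These cells use the same machinery as vascular smooth muscle: an actin filament (alpha smooth muscle actin, Acta2), a myosin motor switched on by phosphorylation of its regulatory light chain by myosin light chain kinase (Mylk), and tropomyosins and calponin that tune the filament. Smooth muscle genes are a classic target of serum response factor, which binds CArG boxes with the coactivator myocardin. The space between tubules holds Leydig cells, macrophages, fibroblast-like stromal cells, and capillaries whose endothelium responds to vascular endothelial growth factor and angiopoietins and whose pericytes depend on platelet-derived growth factor and Notch signals.

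The series compared testes of F0 mice, of a strain given as IRC mouse, in 4 groups of 3 libraries. In 8276OV a virus was used to overexpress the long noncoding RNA lncRNA8276, and in 8276KD a virus was used to inhibit it. The groups 3NC and 5NC carry those names as their treatment and nothing more. They were read as control viruses, 5NC for 8276OV and 3NC for 8276KD, because the design text names the groups in that order. All 4 groups share tissue and strain, and the labels give no age, virus type, promoter, infected cell type or pooling of animals. They also do not state whether libraries of a group come from separate animals, so p-values measure only the spread between these libraries.

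Libraries held 15448442 to 16355720 reads, and 18624 to 18797 genes had at least 1 read. On the first principal component of all genes (19.1% of the variance) 8276OV replicates 1 and 3 scored 30.2 and 30.3 and 3NC replicate 2 scored 29, away from the remaining libraries (−16.1 to 10.3). Levels are given as CPM, which are counts over the library total as adjusted by edgeR's TMM scaling, scaled up. Markers of the tissue were present throughout. Per library the 9 germ cell markers summed to 13000 to 17300 CPM, the 9 Sertoli cell markers to 676 to 1370 and the 7 Leydig cell markers to 1270 to 3040. In whole testis, fewer cells of a type and less RNA per cell cannot be told apart.

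Levels of different genes were compared only per transcript length, on the deposited normalised scale read here as FPKM (reads scaled to transcript length and library size), as the mean over the 12 libraries ± SD. Among the contractile genes Actg2, the gamma smooth muscle actin, stood far above the rest at 210 ± 13.6 FPKM. Myl9, the regulatory light chain, had 34.1 ± 6.66 FPKM, Acta2 15.4 ± 2.82 and the tropomyosin Tpm1 15.1 ± 2.91, the last pair not separated by their spread. Mylk (8.49 ± 0.694 FPKM) and Tagln, the actin-binding protein transgelin (8.22 ± 2.07 FPKM), were also not separated. Myh11, the smooth muscle myosin heavy chain, had 5.24 FPKM, Tpm2 4.89, the calponin Cnn1 2.11, the intermediate filament protein desmin (Des) 1.52 and the actin nucleator leiomodin (Lmod1) 1.0.

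Among the stromal and mural genes decorin (Dcn), a matrix proteoglycan, led at 30.0 ± 7.35 FPKM. The platelet-derived growth factor receptor gene Pdgfra followed at 2.51 ± 0.465 and the pericyte gene Rgs5, a regulator of G protein signalling, at 2.2 ± 0.494, within their spread of each other. Nr2f2, a nuclear receptor of stromal and venous cells, had 1.62 FPKM, the matrix proteoglycan gene lumican (Lum) 1.29 and Pdgfrb, the receptor of mural cells, 0.827. The receptor gene Notch3 and the pericyte proteoglycan gene Cspg4 were lowest, at 0.363 and 0.239 FPKM.

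Endothelial genes lay between 0.562 FPKM for Tie1, an orphan receptor tyrosine kinase, and 6.17 ± 1.47 for Cd34, a surface sialomucin. Sox17, a transcription factor of arterial endothelium, had 5.4 ± 0.518 FPKM, within the spread of Cd34. Egfl7, a secreted endothelial protein, had 3.55 FPKM, Eng, the TGF-beta coreceptor endoglin, 2.78, and Vwf, the von Willebrand factor, 2.14. Sox18, a relative of Sox17, had 1.42 FPKM. The 2 receptors of vascular endothelial growth factor, Flt1 and Kdr, had 1.09 and 0.912, and Tek, the angiopoietin receptor, had 1.08. The adhesion molecule gene Pecam1 had 0.958 FPKM, the sialomucin gene Emcn 0.873 and Robo4, a guidance receptor of endothelium, 0.801. Counts behind these levels were small for several genes, with 12 to 24 reads per library for Emcn, 18 to 37 for Cspg4, 19 to 50 for Sox18 and 20 to 103 for Robo4, against 3409 to 4276 for Actg2.

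**Figure D1:**
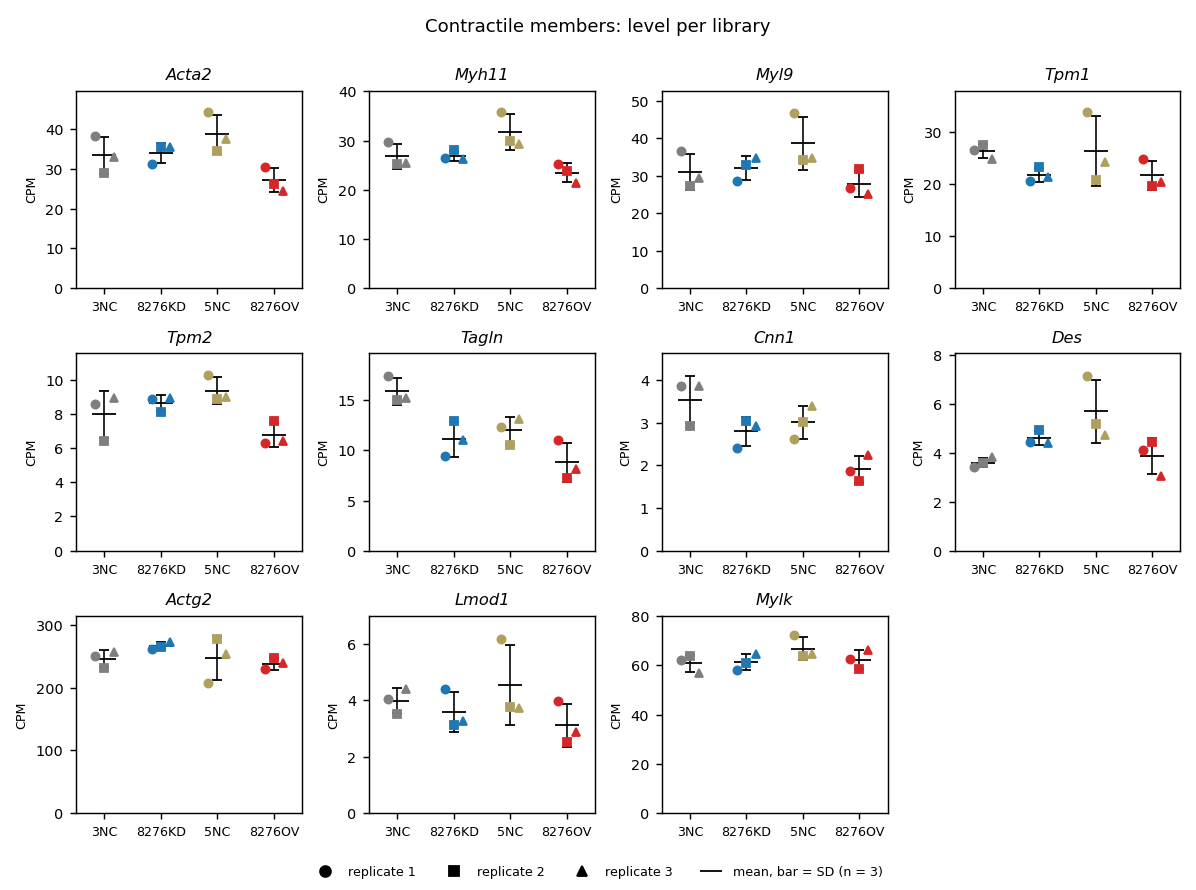
Level of each of the 11 contractile genes in every library, in CPM (each axis starts at 0), by group. Points are libraries, with the symbol giving the replicate number; the line and bar are the mean and SD of 3 libraries. For Acta2, Myh11, Myl9, Tpm2, Cnn1 and Des the 3 8276OV libraries lie below the 3 5NC libraries, and Actg2 and Mylk are nearly level over the 4 groups.

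Overexpression of lncRNA8276 against 5NC asks which genes differ where more of this RNA was intended. All 11 contractile genes had lower fitted levels in 8276OV, where 50.3% of all 16320 genes did. Their log2 fold changes lay between −0.65 and −0.05, with a median of −0.47, against a median of 0 over all genes tested. With edgeR's quasi-likelihood test and Benjamini-Hochberg adjustment 0 of the 32 genes were called at an adjusted p under 0.05 (0.0% of all genes tested were). DESeq2, which called 0.272% of its genes, and limma with voom, which called 0.19%, called 0 of the 32 as well. At an unadjusted p under 0.05, 8 of the 32 were lower, all 8 of them contractile, and 0 were higher, where 4.79% of all genes were lower and 5.61% higher. For 6 contractile genes the 3 and 3 libraries did not overlap, with 8276OV lower in each, as was so for 7.56% of all genes.

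Acta2 (gene 11475, chr19:34240336-34255585 in GRCm38.p6) had 44.2, 34.5 and 37.4 CPM in 5NC replicates 1 to 3 and 30.4, 26.3 and 24.5 in 8276OV. It had 38.2, 28.9 and 33.0 CPM in 3NC and 31.2, 35.5 and 35.6 in 8276KD. The 8276OV libraries thus lay below all 5NC and all 8276KD libraries and overlapped 3NC. The fitted log2 fold change against 5NC was −0.52 ± 0.13 (SE; adjusted p = 0.404).

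Myl9 (gene 98932, chr2:156775408-156781657) had 46.9, 34.2 and 34.9 CPM in 5NC and 26.8, 31.8 and 25.2 in 8276OV. Its levels were 36.6, 27.4 and 29.5 CPM in 3NC and 28.6, 33.0 and 34.8 in 8276KD. All 8276OV libraries were below those of 5NC; replicates 1 and 3 were also below all of 3NC and 8276KD, and replicate 2 lay among them. Without 5NC replicate 1 the difference from 5NC was −0.31, and with all libraries the log2 fold change was −0.47 ± 0.14 (adjusted p = 0.404). Pairing of 8276OV and 5NC replicates was inferred from these same data, in which same-numbered libraries deviated together (r of 0.165, 0.149 and 0.109). An edgeR fit of these 6 libraries with a replicate block called Acta2 (−0.52 ± 0.11, adjusted p = 0.0078) and Myl9 (−0.47 ± 0.12, adjusted p = 0.049). Both were among the 1.35% of genes that this fit called. Without the block, a fit of the same 6 libraries called 0 of the 32 genes. Its share over all genes was not computed, so this 0 cannot be weighed against the calls of the block fit. A block in the fit of all 12 libraries called 0 of the 32 genes and 0.0% of all genes.

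Myh11 (gene 17880, chr16:14194527-14292188) had 35.8, 29.9 and 29.3 CPM in 5NC and 25.2, 23.9 and 21.4 in 8276OV, with 29.7, 25.2 and 25.5 in 3NC and 26.4, 28.0 and 26.3 in 8276KD. The 8276OV values were the 3 lowest of the 12, and the log2 fold change against 5NC was −0.43 ± 0.11 (adjusted p = 0.404). Cnn1 had 2.63, 3.02 and 3.4 CPM in 5NC, 1.86, 1.63 and 2.25 in 8276OV, 3.86, 2.92 and 3.87 in 3NC and 2.42, 3.04 and 2.93 in 8276KD. The 3 8276OV libraries were below the other 9, and Cnn1 had the largest fitted difference of the contractile genes against 5NC, −0.65 ± 0.21. Its counts were low, at 26 to 60 reads per library.

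Tpm2 had 10.3, 8.87 and 8.97 CPM in 5NC against 6.28, 7.58 and 6.43 in 8276OV (log2 fold change −0.47 ± 0.15), and 8276KD (8.1 to 8.93) also lay above 8276OV while 3NC (6.39 to 8.93) overlapped it. Des had 7.14, 5.19 and 4.74 CPM in 5NC, 4.1, 4.45 and 3.06 in 8276OV, 3.41, 3.59 and 3.81 in 3NC and 4.46, 4.92 and 4.4 in 8276KD. Its 5NC libraries were high and its 3NC libraries low, so 8276OV, at −0.56 ± 0.19 against 5NC, overlapped 3NC. Tagln, whose levels are given further on, had −0.44 ± 0.17 (adjusted p = 0.427), with overlap. Lmod1 (−0.55 ± 0.24) had 6.17 CPM in 5NC replicate 1 and 2.51 to 4.4 in all other libraries, and its groups overlapped.

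The remaining contractile genes overlapped between the groups. Tpm1 had 33.8, 20.8 and 24.2 CPM in 5NC and 24.9, 19.7 and 20.4 in 8276OV, with overlap (−0.28 ± 0.15). Mylk ranged from 57.1 to 72.2 CPM and Actg2 from 208 to 278 CPM over the 12 libraries, with differences of −0.1 ± 0.08 and −0.05 ± 0.09 in 8276OV. Actg2, the most abundant member per length, thus lay within its spread in both groups. Its levels were 251, 231 and 257 CPM in 3NC, beside summed germ cell markers of 15000, 13000 and 16500. In 5NC they were 208, 278 and 254 beside 13500, 16800 and 15600. In 8276KD they were 262, 265 and 273 beside 15400, 15700 and 17300, and in 8276OV 229, 248 and 239 beside 15100, 14900 and 14200. Which cells the Actg2 reads came from was not tested.

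The 250 bases before the start site were read for the 22 of the 32 genes that the RefSeq promoter table (GRCm38.p6) holds, among them 8 contractile genes. The sequences below show the CArG box, the binding site of serum response factor, in capitals, in the 2 genes called under the replicate block, Acta2 and Myl9, and its absence in the same window of Cnn1 and Des, whose groups also did not overlap. A CArG box in its strict form, searched on both strands, was found before Myl9 and no other of the 22 genes, 161 bases from the start, and before 1.62% of 27025 genes. With 1 C or G allowed in the core, a form added after the data were seen, it was also found before Acta2, 84 and 34 bases from the start, and before Eng, Egfl7 and Kdr, and before 9.78% of all genes. The second site of Myl9, 99 bases from its start, has that form. For Acta2 the 30 bases around each site are given, and both stretches lie wholly within an annotated exon, as do 217 of the 250 bases of its window. For Myl9 and Cnn1 the bases outside annotated exons are given. A match describes these letters and is no measured site.
Acta2, chr19:34255438-34255467, minus strand: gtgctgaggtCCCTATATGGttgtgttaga
Acta2, chr19:34255388-34255417, minus strand: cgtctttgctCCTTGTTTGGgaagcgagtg
Myl9, chr2:156775214-156775419, plus strand: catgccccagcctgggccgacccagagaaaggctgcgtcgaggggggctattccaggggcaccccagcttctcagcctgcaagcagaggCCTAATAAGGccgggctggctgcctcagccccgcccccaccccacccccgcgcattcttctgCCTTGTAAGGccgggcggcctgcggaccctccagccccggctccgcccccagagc
Cnn1, chr9:22099003-22099215, plus strand: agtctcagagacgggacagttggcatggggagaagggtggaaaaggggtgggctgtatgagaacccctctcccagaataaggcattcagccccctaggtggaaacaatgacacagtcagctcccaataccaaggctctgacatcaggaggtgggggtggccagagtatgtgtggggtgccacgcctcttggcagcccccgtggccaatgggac
Des, chr1:75360042-75360291, plus strand: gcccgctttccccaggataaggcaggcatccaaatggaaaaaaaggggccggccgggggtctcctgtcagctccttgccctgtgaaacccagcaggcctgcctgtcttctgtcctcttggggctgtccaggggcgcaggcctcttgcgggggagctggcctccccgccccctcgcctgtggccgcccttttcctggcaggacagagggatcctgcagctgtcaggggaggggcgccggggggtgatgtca

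The MCAT element (CATTCC, either strand), a site of TEAD factors, was in the window of 4 of the 8 contractile genes (Acta2, Lmod1, Mylk and Tpm1), in 0 of 5 stromal and mural and 0 of 9 endothelial genes, and in 14.4% of all genes. The letters TATAAA were in the window of 1 of the 22 genes, Flt1, and in 14.3% of all genes. Of the genes that hold the MCAT element, Mylk had −0.1, Tpm1 −0.28, Acta2 −0.52 and Lmod1 −0.55 in 8276OV against 5NC.

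The stromal and mural genes were split in 8276OV against 5NC, with 5 lower and 3 higher and a median of −0.12 (range −0.41 to 0.35). None of the 8 reached an unadjusted p under 0.05, and all overlapped. Notch3 had 3.18, 3.55 and 3.59 CPM in 5NC and 3.2, 2.19 and 2.37 in 8276OV, with 3.08, 1.7 and 2.82 in 3NC and 3.31, 3.11 and 2.17 in 8276KD. The 2 highest values were in 5NC (−0.41 ± 0.25). Rgs5 had 10.3, 9.6 and 9.48 CPM in 5NC, 7.69, 5.52 and 10.4 in 8276OV, 7.07, 11.6 and 6.89 in 3NC and 8.09, 7.51 and 7.14 in 8276KD, so that single libraries of 8276OV and 3NC held both extremes (−0.32 ± 0.22, and −0.11 without 8276OV replicate 2). Dcn was higher by sign (0.35 ± 0.25), with 80.6 CPM in 8276OV replicate 1, the highest value of all, and 37.2 in replicate 2, the lowest. Its other levels were 59.9 CPM in 8276OV replicate 3, 56.9, 42.9 and 39.7 in 5NC, 42.6, 60.8 and 42.5 in 3NC and 48.0, 53.6 and 58.0 in 8276KD, and without 8276OV replicate 1 the difference was 0.06.

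Of the 13 endothelial genes 8 were lower and 5 higher in 8276OV against 5NC, with a median of −0.18 (range −0.71 to 0.32), and none reached an unadjusted p under 0.05. The smallest adjusted p of the 13 was 0.48, for Egfl7 (−0.37 ± 0.18). Egfl7 had 4.34, 5.0 and 5.32 CPM in 5NC, 4.36, 3.2 and 3.75 in 8276OV, 3.92, 3.17 and 3.94 in 3NC and 4.4, 3.82 and 4.65 in 8276KD, and 5NC and 8276OV met only at 4.34 and 4.36. Eng was higher by sign (0.32 ± 0.18), with 13.6, 9.59 and 8.05 CPM in 8276OV and 10, 7.1 and 7.82 in 5NC, and had 0.09 without 8276OV replicate 1. Tek (0.27 ± 0.16) had 4.29, 5.58 and 5.81 CPM in 8276OV and 4.21, 4.27 and 4.48 in 5NC, so replicates 2 and 3 stood above 5NC and replicate 1 among it.

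Single libraries carried part of these differences. 5NC replicate 1 held the highest value of the 12 libraries for 14 of the 32 genes, and 8276OV replicates 2 and 3 the lowest for 8 and 7. Without 5NC replicate 2, 10 of the 11 contractile genes were lower in 8276OV. Without 5NC replicate 1 all 11 contractile genes were still lower in 8276OV, with a median of −0.33, while the medians of the stromal and mural and of the endothelial genes were 0.04 and 0.01. Without 3NC replicate 2 and 8276OV replicate 3, a choice made after the data were seen, 11 contractile genes were lower with a median of −0.41.

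Markers of other cells also differed between these libraries. 5NC replicate 1 also had the highest summed levels of the Sertoli cell markers (1370 CPM against 676 to 919 elsewhere) and of the Leydig cell markers (3040 against 1270 to 2280), and its germ cell sum was 13500 CPM. In 8276OV against 5NC 8 of 9 Sertoli markers and 7 of 7 Leydig markers were lower, and 10 of 10 macrophage markers were higher. Their median log2 fold changes were −0.2, −0.5 and 0.76, beside −0.47 for the contractile genes. Macrophage sums were 228, 139 and 121 CPM in 8276OV, 132, 100 and 93.7 in 5NC, 86.6 to 118 in 3NC and 90.0 to 96.5 in 8276KD. The part of Sertoli cells, Leydig cells and macrophages in the contractile difference was not tested. Epididymis and fat markers (10 of 13 in the table) summed to 345 and 302 CPM in 5NC replicates 2 and 3, against 160 in 5NC replicate 1 and 167 to 217 in the other groups. The epididymal gene Crisp1 had 93.3 and 90.0 CPM in these 2 libraries and 9.95 in 5NC replicate 1, against 0.0 to 9.21 elsewhere. The low sum of 5NC replicate 1 follows Cst8, the most abundant gene of the list (128 of its 160 CPM, against 145 to 199 in the others). Its Crisp1 and Spink8 levels (9.95 and 3.48 CPM) lay above all libraries outside 5NC and its Plin1 level, a fat cell gene, was the highest of all (2.63 CPM). Of 9 tested epididymis and fat markers 7 were lower in 8276OV against 5NC (median −0.75), and their part in the contractile difference was not tested. 5NC replicate 1 had the highest Acta2, Myh11, Myl9, Tpm1, Tpm2, Des, Lmod1 and Mylk levels of all libraries. Skeletal muscle markers summed to 8.61 to 12.2 CPM, mesothelial markers to 3.37 to 8.49 and erythrocyte markers to 30.3 to 123, with 2 of 4, 1 of 2 and 1 of 4 tested members lower in 8276OV.

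**Figure D2:**
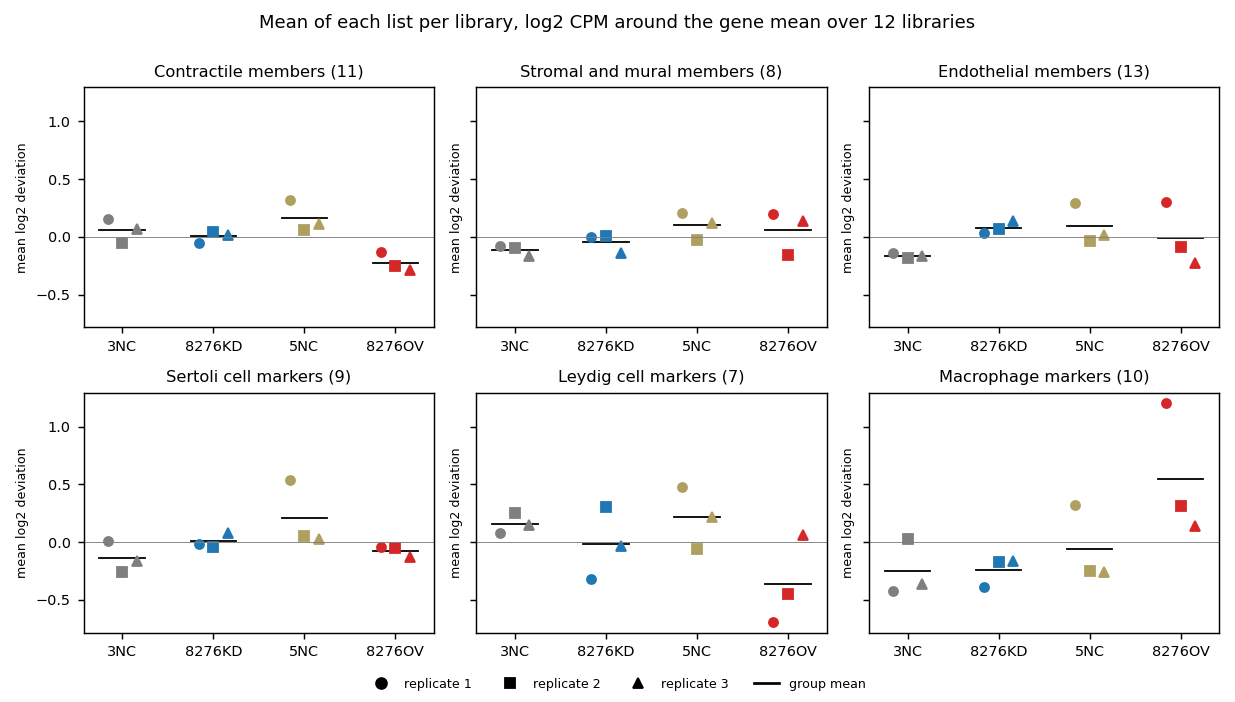
Mean over the genes of a list of log2 CPM around each gene's mean over 12 libraries, per library, for the 3 roles (upper row) and for Sertoli, Leydig and macrophage markers (lower row). Points are libraries and lines group means; contractile means are lowest in the 3 8276OV libraries (−0.13, −0.25 and −0.29), and 5NC replicate 1 is highest for contractile (0.32) and Sertoli (0.54) genes.

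Inhibition of lncRNA8276 against 3NC asks which genes differ where less of this RNA was intended. By edgeR's quasi-likelihood test 0 of the 32 genes were called, where 0.178% of all genes were, and DESeq2 (0.415% of its genes) and limma with voom (0.57%) called 0 too. The endothelial genes had a median log2 fold change of 0.21, with 11 of 13 higher, where 49.5% of all genes were higher. At an unadjusted p under 0.05, 4 of them were higher (2.53% of all genes), and the same 4 did not overlap (7.72% of all genes). Contractile genes had a median of 0.01 with 7 of 11 higher, and stromal and mural genes 0.12 with 5 of 8 higher.

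The 4 endothelial genes were Sox18, Eng, Flt1 and Tek. Sox18 had 2.8, 2.27 and 3.19 CPM in 8276KD and 1.54, 1.16 and 1.84 in 3NC, with 2.75, 2.04 and 1.86 in 5NC and 2.69, 1.38 and 1.81 in 8276OV. The 8276KD libraries lay above those of 3NC and overlapped 5NC and 8276OV, and the log2 fold change was 0.86 ± 0.28 (edgeR adjusted p = 0.604). Eng had 10.9, 10.3 and 10.9 CPM in 8276KD, tightly grouped, and 6.88, 7.37 and 7.94 in 3NC (0.53 ± 0.18, adjusted p = 0.652). Flt1 had 6.95, 7.38 and 9.63 CPM in 8276KD, 5.08, 6.76 and 5.12 in 3NC, 5.31, 5.72 and 5.77 in 5NC and 7.44, 5.64 and 5.99 in 8276OV. Its 8276KD libraries lay above both control groups, and the difference was 0.5 ± 0.17 (adjusted p = 0.671).

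Tek had 4.78, 5.18 and 5.8 CPM in 8276KD and 4.11, 3.77 and 3.94 in 3NC (0.41 ± 0.16). Against 5NC in place of 3NC the 3 genes Eng, Flt1 and Tek again did not overlap, with 8276KD higher (0.36, 0.51 and 0.28), as was so for 7.32% of all genes, whereas Sox18 did (0.31). There 7 of the 13 endothelial genes were higher, and 47.5% of all genes. Erythrocyte markers, a sign of blood in the sample, had higher fitted levels for 4 of 4 tested members in 8276KD. Of these 0 were higher at an unadjusted p under 0.05 by edgeR (2.53% of all genes). Alas2 was nearly level, with 16.8, 14.9 and 16.8 CPM in 8276KD and 16.8, 14.8 and 16.1 in 3NC. Erythrocyte sums were 70.2, 123 and 95.9 CPM against 62.3, 53.9 and 62.1 in 3NC. The part of erythrocytes in the endothelial values was not tested.

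Nr2f2 stood out among the stromal genes (gene 11819, chr7:70351946-70366746). It had 7.2, 7.58 and 4.91 CPM in 8276KD and 4.43, 3.59 and 3.81 in 3NC, with no overlap and a log2 fold change of 0.73 ± 0.2 (adjusted p = 0.38). Pdgfra had 15.7, 16.5 and 13.5 CPM in 8276KD and 14.3, 14.5 and 12.8 in 3NC, with overlap (0.13 ± 0.14). Cspg4 had 1.91, 1.94 and 1.15 CPM in 8276KD against 2.12, 2.01 and 2.03 in 3NC, 2.26, 1.91 and 1.86 in 5NC and 1.6, 2.13 and 1.81 in 8276OV, so that 8276KD replicate 3 alone was far below the rest (−0.3 ± 0.24, and −0.09 without it).

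Of the contractile genes Tagln and Tpm1 lay lower in 8276KD without overlap (8.74% of all genes did), and Des and Actg2 higher. Tagln was the 1 contractile gene with an unadjusted p under 0.05 (3.47% of all genes were lower at that level), with 9.43, 12.9 and 11 CPM in 8276KD and 17.4, 15 and 15.2 in 3NC (−0.51 ± 0.16, adjusted p = 0.577). Tpm1 had 20.6, 23.3 and 21.4 CPM in 8276KD and 26.6, 27.5 and 24.9 in 3NC (−0.27 ± 0.15), and Des had 0.35 ± 0.19. Actg2 had 262, 265 and 273 CPM in 8276KD against 251, 231 and 257 in 3NC, a difference of 0.12 ± 0.09. Acta2, Myh11 and Myl9, the genes of smallest p in 8276OV, had 0.03, 0.01 and 0.05 in 8276KD.

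**Figure D3:**
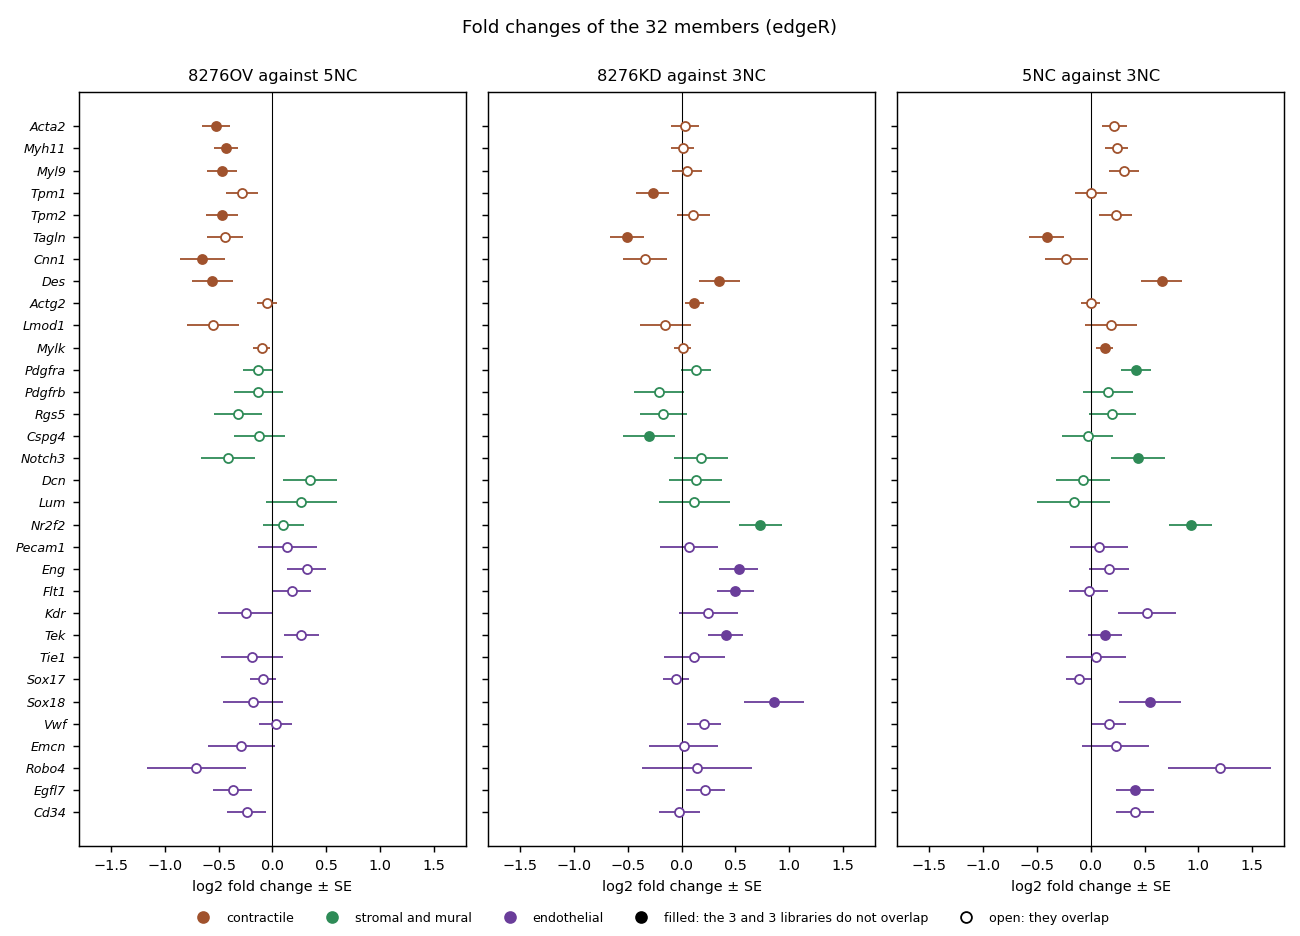
Fitted log2 fold change ± SE of the 32 genes in 3 comparisons, coloured by role; filled points mark genes whose 3 and 3 libraries do not overlap. All 11 contractile genes lie left of 0 in 8276OV against 5NC, 11 of 13 endothelial genes right of 0 in 8276KD against 3NC, and 24 of 32 genes right of 0 in 5NC against 3NC.

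The 2 control groups were compared with each other to show how far these genes differ without a change in lncRNA8276 being intended. In 5NC 24 of the 32 genes were higher than in 3NC, where 51.9% of all genes were, with medians of 0.19, 0.18 and 0.17 for contractile, stromal and mural, and endothelial genes. With 1 library left out these medians were 0.11 to 0.28, 0.12 to 0.27 and 0.16 to 0.27, each lowest without 5NC replicate 1; the contractile and endothelial ones were highest without 5NC replicate 2 and the stromal and mural one without 5NC replicate 3. The contractile median was also 0.12 without 3NC replicate 2. By edgeR 0 of the 32 genes were called (0.362% of all genes were), 9 had an unadjusted p under 0.05 (12.1% of all genes), and DESeq2, with 0.847% of its genes called, called 1, Nr2f2 (0.92 ± 0.23, adjusted p = 0.0134). Limma with voom called 0 of the 32 and 0.705% of all genes. All 9 Sertoli markers were higher in 5NC too, with a median of 0.34. Of 9 tested epididymis and fat markers 7 were higher (median 1.06), and edgeR called 2 of them, Spink8 (3.79 ± 0.63) and Plin1 (1.47 ± 0.27), with an adjusted p = 0.0333 each. The part of these cells in the values of the 32 genes was not tested. The groups did not overlap for 8 genes with 5NC higher (8.13% of all genes) and 1 with 5NC lower (8.72%).

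Nr2f2 had 8.55, 5.59 and 8.33 CPM in 5NC and 3.59 to 4.43 in 3NC, with 0.93 ± 0.2 by edgeR (adjusted p = 0.0873). Without 5NC replicate 2, the lowest of its group, edgeR called it (1.1 ± 0.19, adjusted p = 0.0387). The share of all genes that this fit called was not computed. Pdgfra had 22.5, 15.8 and 17.4 CPM in 5NC, all above 3NC (0.42 ± 0.14, adjusted p = 0.322), and Des had 0.66 ± 0.19 (adjusted p = 0.252), Notch3 0.44 ± 0.25, Egfl7 0.41 ± 0.18 and Myh11 0.24 ± 0.11. Without 5NC replicate 1 Pdgfra had 0.27 and Myh11 0.15, and without 3NC replicate 2 Notch3 had 0.22. Cd34 had 22.8, 14.3 and 15.2 CPM in 5NC and 11.1, 16.3 and 11.9 in 3NC, with 12.5, 13.9 and 12.4 in 8276KD and 16.2, 15.4 and 12.7 in 8276OV, and its difference of 0.41 ± 0.18 was 0.17 without 5NC replicate 1.

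Robo4 rested on the same library. It had 6.29, 1.71 and 2.82 CPM in 5NC, 1.8, 1.46 and 1.44 in 3NC, 1.66, 1.49 and 2.04 in 8276KD and 3.97, 1.25 and 1.44 in 8276OV, so replicate 1 of 5NC and of 8276OV stood above all others. The fitted difference between the controls was 1.2 ± 0.48 (adjusted p = 0.384), and 0.53 without 5NC replicate 1. Tagln was the 1 gene lower without overlap, with 12.3, 10.5 and 13.1 CPM in 5NC and 17.4, 15 and 15.2 in 3NC (−0.41 ± 0.16, adjusted p = 0.384).

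**Figure D4:**
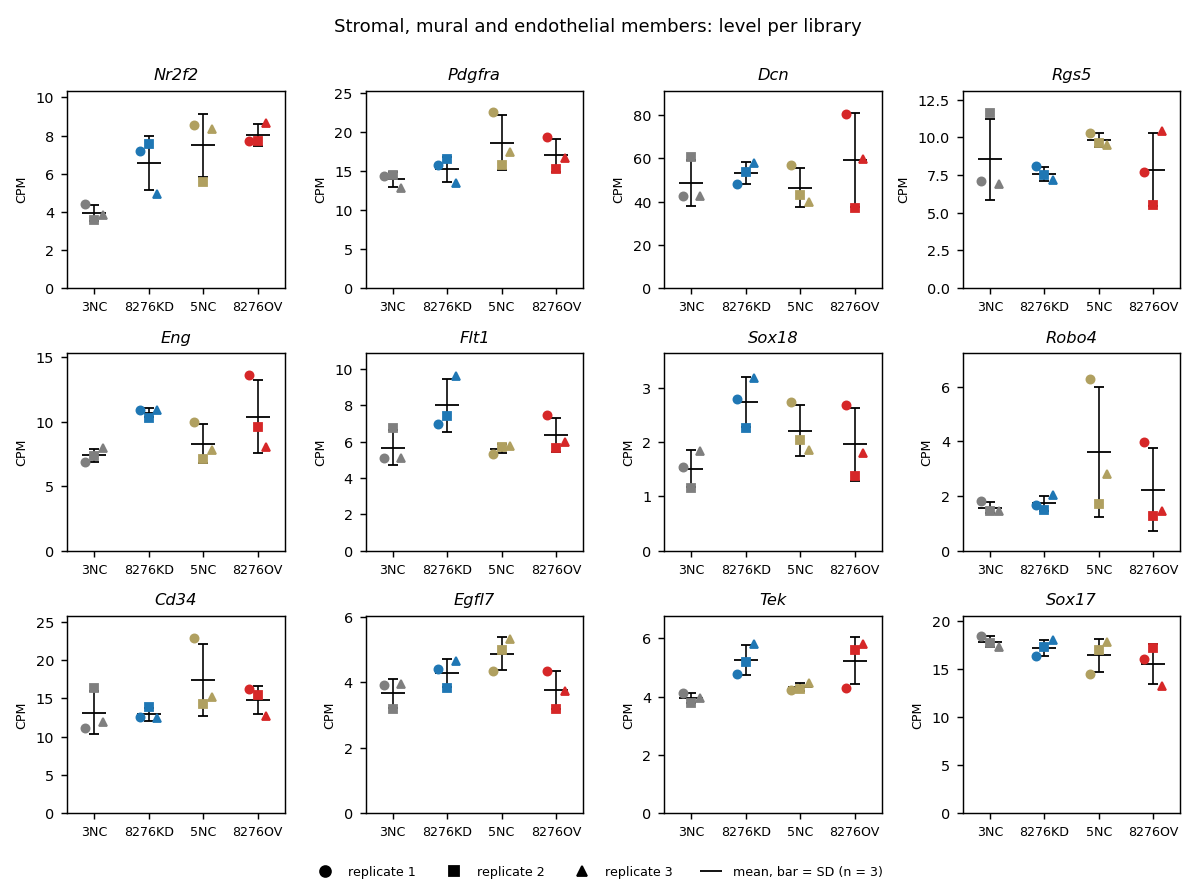
Level of 4 stromal and mural and 8 endothelial genes in every library, in CPM with each axis starting at 0, by group; points are libraries and lines and bars are means and SDs of 3. Nr2f2 is low in the 3 3NC libraries (3.59 to 4.43 CPM) and Robo4 is high in 5NC replicate 1 (6.29 CPM).

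With 3NC in place of 5NC as the control of 8276OV, edgeR called 2 of the 32 genes, where 0.319% of all genes were called. Tagln (gene 21345, chr9:45929628-45936058) had 11, 7.21 and 8.18 CPM in 8276OV and 9.43, 12.9 and 11 in 8276KD, below the 15 to 17.4 of 3NC, and fell by 0.85 ± 0.17 on the log2 scale (adjusted p = 0.0479). Nr2f2 had 7.69, 7.71 and 8.68 CPM in 8276OV and rose by 1.02 ± 0.2 (adjusted p = 0.0494). For both genes 3NC stood apart from each of the other 3 groups: no library of 5NC, 8276KD or 8276OV overlapped it. Of the 12 fits that each left out 1 library, Tagln was called in 1 (without 8276OV replicate 1, adjusted p = 0.0161) and Nr2f2 in 2 (without 5NC replicate 2, 0.0329, and without 8276KD replicate 3, 0.0406), and neither was called with a replicate block (0.178% of all genes called with all 12 libraries, 0.0251% with 6). DESeq2 (0.499% of its genes called) called Tagln (adjusted p = 0.00131) and Nr2f2 (0.00347). Limma with voom (1.37% called) called Tagln (adjusted p = 0.0236) and Cnn1 (−1.05, 0.0198) and not Nr2f2. EdgeR without 3NC replicate 2 and 8276OV replicate 3, the choice made after the data were seen, called Cnn1 alone of the 32 (−1.14, adjusted p = 0.0486). For the fits that left out libraries the share of all genes called was not computed. The comparison of 8276OV with 3NC shares its libraries with the ones above. Contractile genes had a median of −0.24 against 3NC with 9 of 11 lower (50% of all genes were), Cnn1 having −0.89 ± 0.21 by edgeR (adjusted p = 0.151), while Acta2 had −0.3, Myh11 −0.19, Myl9 −0.16 and Des 0.1.

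The read assignment of Tagln is uncertain. Of the 50-base words of its annotated transcripts 58.3% also occur in other gene models, chiefly Gm48529 and the neighbouring gene Pcsk7, and it was the only 1 of the 32 genes with fractional counts, in 11 of 12 libraries. Pcsk7 itself had −0.09 ± 0.11 in 8276OV against 3NC. Sox17 shared 15% of its words with another gene model, and the remaining 30 genes at most 7.35%, Acta2 sharing 0.326% and Actg2 0.0% with others.

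The difference between the 8276OV and the 8276KD effect, each against its own control and with no library in common, had a median of −0.39 for the contractile genes (10 of 11 below 0, where 50% of all genes were), −0.03 for the stromal and mural and −0.31 for the endothelial genes. By edgeR 0 of the 32 genes were called (0.0613% of all genes were), and DESeq2 (0.528% of its genes) and limma with voom (0.239%) called 0. At an unadjusted p under 0.05, 8 were below 0 (6.96% of all genes) and 0 above (8.73%). These were Des (−0.91 ± 0.27), Tpm2 (−0.58), Acta2 (−0.55), Myl9 (−0.52), Myh11 (−0.44), Sox18 (−1.04), Nr2f2 (−0.63) and Egfl7 (−0.6), with a smallest adjusted p of 0.257. In a test for any difference among the 4 groups edgeR called 0 of the 32 genes (0.337% of all genes), 11 at an unadjusted p under 0.05 (9.07%). DESeq2, with 1.6% of its genes called, called Tagln and Nr2f2 (adjusted p = 0.00535 each). Limma with voom, with 1.72% called, called Tagln (adjusted p = 0.0423) and Cnn1 (adjusted p = 0.049).

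Within groups the genes of a role varied together only in part. After each group's mean was removed, Acta2 and Myh11 followed the mean of the other contractile genes over the 12 libraries (Pearson's r of 0.95 and 0.85), while Cnn1 did not (−0.13) and Actg2 ran opposite (−0.61). Eng, Pecam1 and Robo4 followed the other endothelial genes (0.93, 0.84 and 0.84), Sox17 and Flt1 little (0.0 and 0.29) and Tek ran opposite (−0.66). Eng, Pecam1 and Robo4 also followed the contractile mean (0.66, 0.79 and 0.81), and Acta2 and Myh11 the endothelial mean (0.76 and 0.72). Their covariation was thus not confined to their own role. Of the 8 stromal and mural genes Pdgfra followed its role most closely (0.78), and Pdgfrb followed the contractile genes (0.78) and the endothelial genes (0.76) more than its own role (0.21). Over pairs of genes the median r was 0.3 within the contractile, 0.21 within the endothelial and 0.08 within the stromal and mural genes, and 0.23 between contractile and endothelial genes. All points of a library share its depth and scaling, so these values are a description.

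**Figure D5:**
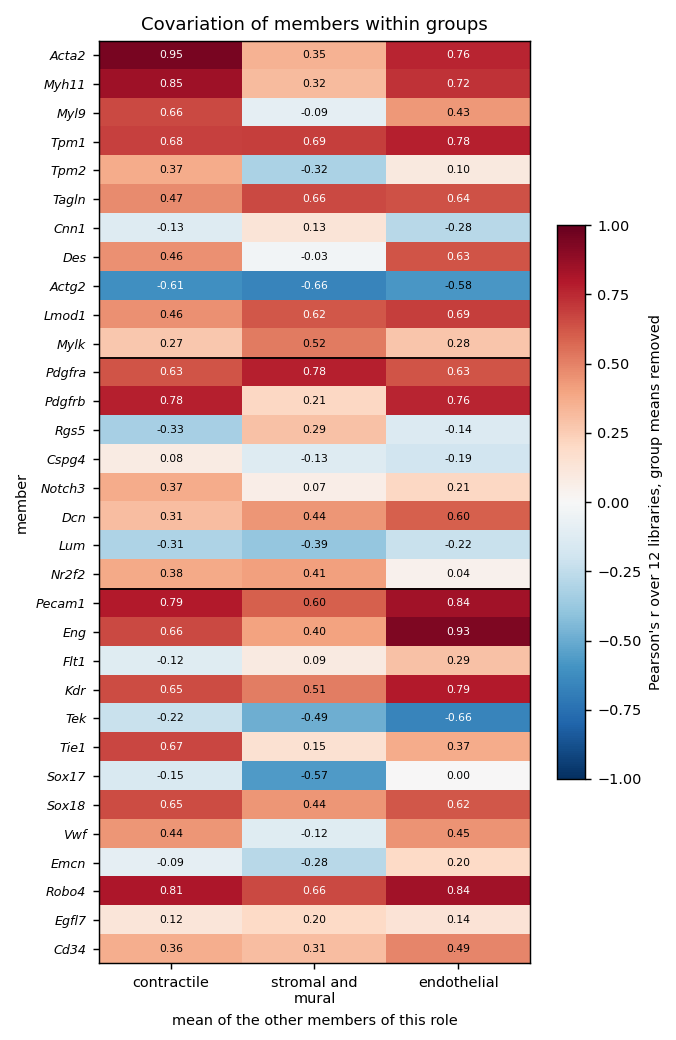
Pearson's r of each gene (rows, grouped by role) with the mean of the other genes of each role (columns) over 12 libraries, on log2 CPM with group means removed; red is positive, blue negative. Acta2, Myh11 and Eng follow their own role, and Actg2 and Tek run opposite to theirs. Acta2 and Myh11 also follow the endothelial mean (0.76 and 0.72), and Eng the contractile mean (0.66).

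Other genes of the same pathways were taken from lists of further smooth muscle, mural, stromal, endothelial and ligand genes, chosen for their roles. By edgeR 0 members of these 5 lists were called in 8276OV against 5NC, 8276KD against 3NC or 5NC against 3NC. In 8276OV against 5NC 14 of 22 further smooth muscle genes were lower (median −0.14), 3 of them at an unadjusted p under 0.05 (4.79% of all genes). Smtn, which encodes the cytoskeletal protein smoothelin, had 8.55 ± 1.96 CPM (SD, n = 3) in 5NC and 5.16 ± 0.926 in 8276OV without overlap (−0.73 ± 0.19, adjusted p = 0.404), and Ppp1r14a, an inhibitor of myosin phosphatase, had −1.15 ± 0.41. Myocd, the coactivator myocardin, had 1.6 ± 0.376 CPM in 3NC and 0.555 ± 0.0715 in 8276KD (−1.51 ± 0.35, adjusted p = 0.158). It had 1.1 ± 0.487 CPM in 5NC and 0.904 ± 0.0922 in 8276OV, so 3NC had the highest mean, and all these levels are low. In 8276KD against 3NC 3 of the 22 were lower and 1 higher at an unadjusted p under 0.05, against 3.47% and 2.53% of all genes. The list median there was −0.14, with 13 of 22 lower. Synm, an intermediate filament partner of desmin, had 0.46 ± 0.13 there.

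Of 9 tested mural genes 0 reached an unadjusted p under 0.05 in these 3 comparisons, and their medians were −0.13, −0.08 and 0.23. Among 16 further stromal genes 2 were higher and 3 lower at that level in 8276OV against 5NC, 4 higher in 8276KD and 4 higher in 5NC. Over all genes these shares were 5.61% higher and 4.79% lower, 2.53% higher and 5.94% higher, and the list medians were 0.17, 0.15 and 0.18. Ly6a, a surface marker of stromal and endothelial cells that is also induced by interferon, had 27.7 ± 22.9 CPM in 8276OV and 6.48 ± 1.34 in 5NC (2.1 ± 0.63), and Gli1, the Hedgehog target, had −0.8 ± 0.24. Tcf21, a transcription factor of stromal progenitors, was low in 3NC, with 1.09 ± 0.281 CPM against 2.64 ± 0.581 in 5NC (1.26 ± 0.26, adjusted p = 0.0652) and 2.5 ± 0.0854 in 8276KD (1.18 ± 0.26, adjusted p = 0.145), as Nr2f2 was. Ptch1, the Hedgehog receptor, had 0.65 in 8276KD and 0.69 in 5NC.

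The 23 tested endothelial genes of the further list had medians of −0.1 in 8276OV against 5NC (13 lower), −0.01 in 8276KD against 3NC (11 higher and 12 lower) and 0.01 in 5NC against 3NC. Of these 3 were higher at an unadjusted p under 0.05 in 8276OV against 5NC (5.61% of all genes), among them Cd93 (0.74 ± 0.25) and Fli1 (0.68 ± 0.3). In 8276KD against 3NC 2 were higher at that level (2.53% of all genes). Cldn5, the tight junction claudin of endothelium, had 4.56 ± 0.915 CPM in 3NC, 8.0 ± 0.553 in 5NC (0.81 ± 0.16, adjusted p = 0.0523) and 7.24 ± 0.923 in 8276KD (0.67 ± 0.16, adjusted p = 0.21), without overlap in either comparison. In 5NC against 3NC 3 of the 23 were higher and 4 lower at that level, where 5.94% and 6.15% of all genes were. The 19 tested ligand genes of these receptors had medians of 0.09, 0.04 and −0.06 in the 3 comparisons. At that level 1 was higher (5.61% of all genes) in 8276OV (Pdgfd, 0.43 ± 0.18) and 1 lower (3.47%) in 8276KD (Vegfd, −0.93 ± 0.3). In 5NC 1 was higher (5.94%) and 2 lower (6.15%).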

How the data were processed

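RNA sequencing libraries of mouse testis, 3 in each of 4 groups, were analysed. The authors deposited expected counts per gene (per the file headers; 88.0% of the values are whole within 1e-06) and a normalised value per gene. The unit of the second is not named in the file; it was read as FPKM as deposited by the authors, because over 5204 genes with more than 500 reads what 1 read was worth scaled with 1 over the library's total, within 0.527%. The build is mm10 per the submitters' processing notes, and for the aligner, counting tool, annotation and strand setting nothing is stated in the labels or file headers. A further 18 per-sample columns of the table match none of the 12 libraries and were not used.

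Counts were rounded and tested with edgeR 4.0.16 (R 4.3.3; TMM scaling, robust quasi-likelihood fit of all 12 libraries, prior count 0.125). Genes were kept with filterByExpr (minimum count 10, minimum total 15), which left 16320, with a common biological coefficient of variation of 0.13. P-values were adjusted by Benjamini-Hochberg over all genes tested and called under 0.05; the standard error of a log2 fold change is its size over the square root of F. Levels are CPM from the rounded counts, over the library total of the kept genes after TMM scaling. Alternatives were DESeq2 1.42.0, limma 3.58.1 with voom and sample weights, limma on log2(FPKM + 1) or log2(FPKM + 0.1) with a mean of at least 0.5 or no filter, other size factors, no count filter, a replicate block, fits of 2 groups, the other control group and each library left out. The edgeR steps were tested on simulated data.

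Values in every library were given for the 3 genes of smallest unadjusted p in each role in the 3 main comparisons, and for called genes; further members, Crisp1 and the genes whose sequence is shown were chosen after their values were seen. Genes of the companion lists were named when among the 2 of smallest p of a list. The 32 genes and all lists were chosen with earlier results of these data known. Replicate numbers of 8276OV and 5NC were taken to pair libraries from the data alone, since same-numbered libraries deviated together (r of 0.165, 0.149 and 0.109 across genes); those of 8276KD and 3NC (0.008, 0.031 and 0.056) and of 5NC and 3NC (−0.034, 0.006 and 0.021) did not reach 0.1 in every pair. No level of lncRNA8276 itself is reported, and 3 epididymis symbols (Lcn5, Lcn8 and Defb12) matched no gene of the table.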

Additional observations from a re-analysis of the deposited data

How the results depend on the processing

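Of the 32 genes, 2 were called in 8276OV against 5NC with a replicate block in the fit of 2 groups (Acta2 and Myl9), where 1.35% of all genes were. With the other control group 2 were called (Tagln and Nr2f2), where 0.319% of all genes were. The main fit called 0 of the 32 and 0.0% of all genes. In 5NC against 3NC DESeq2 called 1 (0.847% of its genes), and leaving out 1 library gave 0 to 1. The share of all genes called was not computed for the fits with 1 library left out. For any difference among the groups DESeq2 (1.6% of its genes) and limma with voom (1.72%) called 2 each. The median of the contractile genes in 8276OV against 5NC was −0.32 with voom, −0.35 on log2(FPKM + 1) with and without the filter, −0.24 with the other control group and −0.54 to −0.33 with 1 library left out, below 0 in each. The stromal and mural median there was 0.01 on log2(FPKM + 1), 0.07 with the other control group and −0.17 to 0.04 with 1 library left out, and the endothelial median 0.0 with voom, 0.19 with the other control group and −0.31 to 0.01 with 1 library left out. In 8276KD the other control group gave −0.18 for contractile and −0.27 for stromal and mural genes, with 7 endothelial genes higher, and leaving out 1 library gave −0.01 to 0.15 for stromal and mural genes. The contractile median in 5NC against 3NC was 0.07 with voom. For the difference between the effects, contractile genes had −0.26 with voom, −0.19 on log2(FPKM + 1) with and without the filter and −0.49 to −0.25 with 1 library left out. Stromal and mural genes had −0.17 with voom, −0.19 without 3NC replicate 2 and 8276OV replicate 3, and up to 0.07 with 1 library left out. The causes of these shifts were not tested. All 27 results for the 19 genes named by rule kept their direction in every alternative except the other control group, where Egfl7 (0.04) and Notch3 (0.03) in 8276OV and Nr2f2 (−0.19), Pdgfra (−0.29) and Des (−0.31) in 8276KD changed sign. The replicate block changed no other call in the comparisons with the assigned controls. Low counts limit Emcn, Cspg4, Tie1, Sox18 and Robo4 most, and also Lum (24 to 60 reads per library), Cnn1 (26 to 60) and Notch3 (28 to 56).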
